A study of Mus musculus with 2 samples.

Results

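Cytosolic ribosomal proteins are the protein parts of the ribosome that translates nuclear-encoded mRNA. They were followed here in mouse embryonic fibroblasts as the probe sets whose single platform gene symbol is Rpl or Rps plus a number with an optional letter, Rplp0, Rplp1, Rplp2 or Rpsa, without Rps6k genes, pseudogenes and mitochondrial (Mrp) genes. This rule found 99 probe sets of 45 genes, 24 of the large and 21 of the small subunit, among 45037 probe sets and 18193 genes with a probe set of their own. One further name that has this form, Rps4l, is a transcribed pseudogene in RefSeq and was left out. Another 110 probe sets carry a ribosomal protein symbol together with other symbols; they lie outside the rule and are given only as counts.

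The study compared wild-type fibroblasts with fibroblasts homozygous for Phc2 L307R. Phc2 belongs to Polycomb repressive complex 1, which keeps developmental genes silent. Its SAM domain, by which Phc2 molecules polymerise, carries the substitution L307R. Both cultures were C57BL/6, taken at embryonic day 12.5 and grown to passage 1, and each gave 1 array. The labels do not say how many embryos each culture held. With 1 array per genotype no value has a replicate, no difference was tested, and every difference below is one between 2 arrays.

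In a mature ribosome each protein is present about once, with the acidic stalk proteins as the exception, and free ribosomal proteins that find no partner are degraded. The genes are among the most highly transcribed of any dividing cell. Their mRNAs begin with a run of pyrimidines, the 5′ terminal oligopyrimidine (TOP) tract, through which mTORC1 signalling adjusts their translation, and their many processed pseudogenes make it hard to design probes for one gene alone. Mouse mutants of several members have patterning or pigment phenotypes, and heterozygous loss of several causes Diamond-Blackfan anaemia in humans.

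The starts of the genes show a feature that the choice of members did not use. RefSeq (GRCm38.p6) gave 48 windows, from 250 bases before to 50 bases after an annotated transcript start, for 40 of the 45 genes. The letters CCGGAAG, the core that ETS-family factors such as GABPA bind, were found on either strand in 20 of the 48 windows (41.7%), against 8.86% of all 32851 windows of the same length. CGCGAGA stood in 10 windows (20.8%, against 2.56%) and CTTTCC in 22 (45.8%, against 26.6%). On the gene's own strand CTTTCC, there a run of pyrimidines, stood in 18 windows (37.5%, against 14.1%). The windows lie mostly before the start, so a match in them need not be in the mRNA or in its TOP tract. The remaining pair of motifs searched on both strands stood in fewer windows: AAGATGGC, the core bound by YY1, was in 3 windows (6.25%, against 2.75%) and TATAAA in 5 (10.4%, against 13.6%). Windows of the same gene can overlap, as in Rps19, and were counted separately. CTTTCC and CCGGAAG share bases where the first runs into the second, and CGCGAGA overlaps its own reverse complement, as in Rps6 below. Each match is a match of letters in these windows.

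Upstream sequence is shown for members that mark the range of the expression values below: Rpl38, the highest large-subunit gene; Rpl37, the lowest; Rps25, the lowest small-subunit gene; Rps18 and Rps9, whose probe sets disagreed; and Rps6, which has both kinds of motif. Each run holds the 100 bases before the annotated start, 5′ to 3′ on the gene's strand, with CCGGAAG or its reverse complement, and CGCGAGA or its reverse complement, in capitals.
Rpl38 (chr11:114668480-114668579, plus strand): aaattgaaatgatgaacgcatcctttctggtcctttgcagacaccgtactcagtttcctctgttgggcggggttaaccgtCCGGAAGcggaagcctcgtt
Rpl37 (chr15:5116513-5116612, plus strand): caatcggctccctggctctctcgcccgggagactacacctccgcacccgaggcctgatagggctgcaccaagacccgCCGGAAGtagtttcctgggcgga
Rps25 (chr9:44407614-44407713, plus strand): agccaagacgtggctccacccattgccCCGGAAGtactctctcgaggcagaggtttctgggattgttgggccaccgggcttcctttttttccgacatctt
Rps18 (chr17:33955666-33955765, minus strand): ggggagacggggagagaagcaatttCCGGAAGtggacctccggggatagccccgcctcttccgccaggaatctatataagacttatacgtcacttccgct
Rps6 (chr4:86857368-86857467, minus strand): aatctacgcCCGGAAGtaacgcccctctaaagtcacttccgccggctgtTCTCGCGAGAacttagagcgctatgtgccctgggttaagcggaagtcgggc
Rps9 (chr7:3703941-3704040, plus strand): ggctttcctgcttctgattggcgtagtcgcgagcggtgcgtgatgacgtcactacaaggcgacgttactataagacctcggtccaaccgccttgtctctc
The highest and the lowest gene of the large subunit both carry the ETS core within this stretch. Over the measured genes, those with CCGGAAG in a window had a median log2 ratio of 0.23 (20 genes) and those without it 0.20 (18 genes). The first group ran from -0.63 to 0.45 and the second from -0.36 to 0.44, so that they overlapped.

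The pyrimidine run at the start is shown for 4 members as the 30 bases centred on the annotated start, with CTTTCC in capitals.
Rpl35 (chr2:39005117-39005146, minus strand): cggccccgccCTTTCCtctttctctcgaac
Rps27 (chr3:90213634-90213663, minus strand): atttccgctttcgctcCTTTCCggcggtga
Rpl38 (chr11:114668565-114668594, plus strand): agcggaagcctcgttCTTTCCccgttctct
Rps10 (chr17:27635230-27635259, minus strand): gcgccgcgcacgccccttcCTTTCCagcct
These 4 were chosen because they hold the run: of the 48 such stretches, 6 have CTTTCC on the gene's strand. The share over all genes was not counted for this stretch, so the 6 cannot be called many or few.

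Values are MAS5 signals, a linear intensity per probe set, and each difference is a log2 ratio, Phc2 L307R over wild type. A probe set was called measured when its signal exceeded the floor, the higher of the array medians (94.8), on at least 1 array; signals under this floor were set to it, which turns the fold into a bound. A gene took its measured probe set of highest mean log2 signal. Of the 99 probe sets 89 were measured, and of the 45 genes 43. The remaining genes were Rpl3l, a muscle-restricted paralog of Rpl3, with signals of 12.1 and 9.5, and Rps16, whose only probe set without a second symbol read 4.4 and 1.1.

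As deposited, ribosomal protein genes were slightly higher in Phc2 L307R almost throughout. Of the 43 measured genes 37 had a log2 ratio above 0 and 6 below, where 59% of all 11424 measured genes lay above 0 and 40.9% below. The median log2 ratio was 0.22, which is 1.16-fold, against 0.06 over all measured genes. The values ran from -0.63 for Rpl37 to 0.45 for Rpl38. None was 1.5-fold higher, where 4.19% of all measured genes were, and 1 was 1.5-fold lower, where 3.25% were. None was 2-fold higher or lower, where 0.578% and 0.534% of all measured genes were. With a threshold of 25% above the other array, 11 genes (25.6%) were higher and 3 (6.98%) lower, against 17% and 11.2% of all measured genes. The subunits had similar values: the median was 0.20 in the large subunit (20 higher, 3 lower) and 0.24 in the small one (17 higher, 3 lower).

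**Figure D1:**
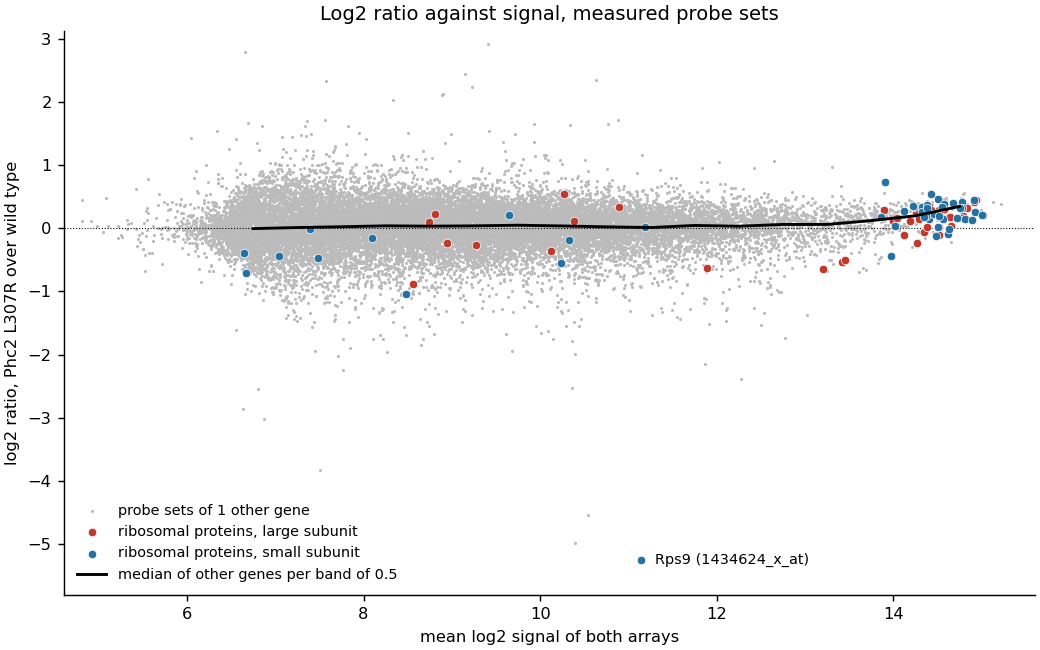
Log2 ratio (Phc2 L307R over wild type) against the mean log2 signal of both arrays for measured probe sets. Grey points are probe sets of 1 other gene, red and blue points are ribosomal proteins of the large and small subunit, and the black line is the median of the grey points in bands of 0.5. The line bends upward above a mean log2 signal of 13.5, where most ribosomal protein probe sets lie, and 1 probe set of Rps9 lies at -5.25.

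This shift was not separate from the scale of the arrays at high signal. Each array had been brought to the same trimmed mean, but the brightest probe set read 33491 in wild type and 43746 in Phc2 L307R. Among probe sets of 1 gene that encode no ribosomal protein, the median log2 ratio was 0.06 at a mean signal of 8192 to 11585 (230 probe sets), 0.12 from there to 16384 (164), 0.20 from there to 23170.5 (72) and 0.35 above (20). The mean is that of the log2 signals of both arrays, and the bands are 0.5 wide on that scale. The ribosomal protein probe sets in the same bands had medians of -0.53 (3 probe sets, of Rpl27 and Rpl13a), 0.23 (4), 0.19 (25) and 0.24 (35). They were therefore level with other probe sets from 16384 to 23170.5, and in the top band their median was the lower one, with a difference of -0.11.

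Taking out the dependence on signal removed the shift. With each log2 ratio centred on the median of other genes in its band, the median over ribosomal protein genes was -0.05, with 14 genes higher and 29 lower, where 53.9% and 46% of all measured genes lay on these sides. Quantile normalization gave 0.00, with 22 higher and 21 lower, where 57.4% and 42.5% did. A loess with a span of 0.05 gave 0.02, with the same counts. A loess with a span of 0.4, which follows the bend less closely, left a median of 0.13, and centring on all measured genes, which cannot remove a bend, left 0.16. These corrections are not independent of the members: of the 118 measured probe sets in the top band, 35 were members, 47 carried a ribosomal protein symbol beside others and only 20 belonged to 1 other gene. Quantile normalization and loess therefore take part of any shift shared by the ribosomal proteins for scale, and the centring in bands rests on 20 probe sets at the top. The direction of the family as a whole cannot be told apart from array scale with these 2 arrays.

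**Figure D2:**
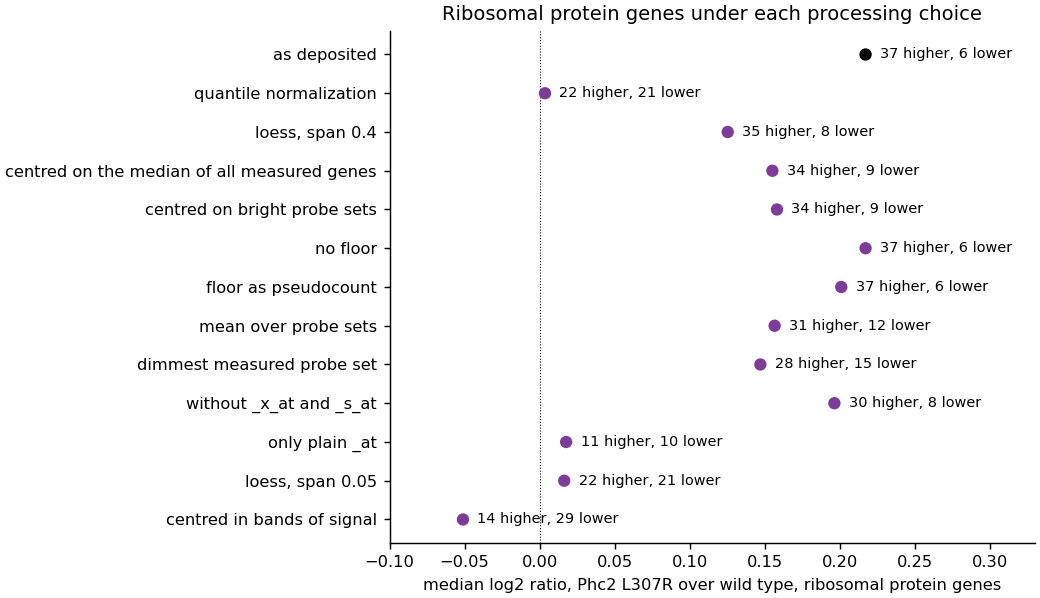
Median log2 ratio (Phc2 L307R over wild type) of the measured ribosomal protein genes under each processing choice, with the number of genes higher and lower. The value is 0.22 as deposited (black) and between -0.05 and 0.02 where the dependence on signal was removed by bands, quantile normalization or the narrow loess.

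Within the large subunit, the highest values belonged to Rpl38, which is needed for translation of a set of Hox mRNAs and for axial patterning in mice. Its only probe set read 26875 in wild type and 36729.5 in Phc2 L307R, a log2 ratio of 0.45 as deposited and 0.10 centred in bands. Rplp0, the base of the stalk that recruits elongation factors, read 26559 and 35634, at 0.42 and 0.08 centred, and its partner Rplp2 read 26455 and 30427, at 0.20 and -0.14 centred. The stalk pair thus sat on both sides of 0 once bright signals were centred. Rpl41, a very short peptide, was at 0.36, Rpl7a at 0.33 and Rpl4, which lines the exit tunnel, at 0.32; centred in bands they were at 0.02, -0.02 and -0.02. Rpl11, which with Rpl5 and the 5S rRNA binds the p53 regulator Mdm2, read 19093 and 21143, a log2 ratio of 0.15 and -0.05 centred.

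The low end of the large subunit was held mostly by dimmer probe sets. Rpl37 read 4696 and 3044, 1.54-fold lower, and Rpl14 1258 and 982.6, a log2 ratio of -0.36. Rpl39l, a paralog of Rpl39 with a testis-enriched form of the protein, was at -0.27. Dim members were not all low, since Rpl27a, with 414.2 and 484.2, was at 0.23. Rpl10a and Rpl35, both bright, were at 0.03 and 0.03 as deposited and at -0.32 and -0.32 centred in bands, the lowest centred values among bright probe sets used for a large-subunit gene. All 5 measured probe sets of Rpl35 lay between -0.23 and 0.03, but they read the same 2 arrays and are not independent. Rpl10a has only 1 probe set.

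In the small subunit, Rps28 was highest: its 3 probe sets read 19898, 21285 and 26562 in wild type and 27342, 27900.2 and 36086 in Phc2 L307R, and their log2 ratios were 0.46, 0.39 and 0.44. All 3 were higher by nearly the same amount, and centred in bands the gene was at 0.10. Rps14 was at 0.41, Rps2 at 0.40, Rps9 at 0.36 and Rps26 at 0.34; centred in bands they were at 0.07, 0.05, 0.16 and 0.14. Rps26, like Rps19 (0.18) and Rps24 (0.15), is a gene of Diamond-Blackfan anaemia, and Rps14 stands beside them in a wider list of anaemia genes. Of the 8 measured genes of that list 7 were higher, with a median of 0.20 as deposited and -0.07 centred, and Rps26 and Rps14 were the highest of them under both. Genes with patterning or pigment phenotypes gave much the same, 7 of 8 higher with medians of 0.18 and -0.07. Rps6, the S6 kinase substrate, read 2314 and 2342, a log2 ratio of 0.02. Rps25 read 1453 and 994.7, a log2 ratio of -0.55, and Rps27 289.0 and 261.0, at -0.15. Rps27l, the p53-inducible paralog of Rps27, was bright at 16273 and 19585, at 0.27 and 0.07 centred. Rps4x, the X-linked copy of Rps4, read 29034 and 31801, at 0.13 and -0.22 centred. Rps29 read 30476 and 35430.2, at 0.22 and -0.13 centred. Rps10 had 5 bright probe sets, all higher, from 0.15 to 0.55. Rps7 was at -0.02, and at -0.36 centred, the lowest centred value among bright small-subunit genes, although its second probe set gave 0.20.

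**Figure D3:**
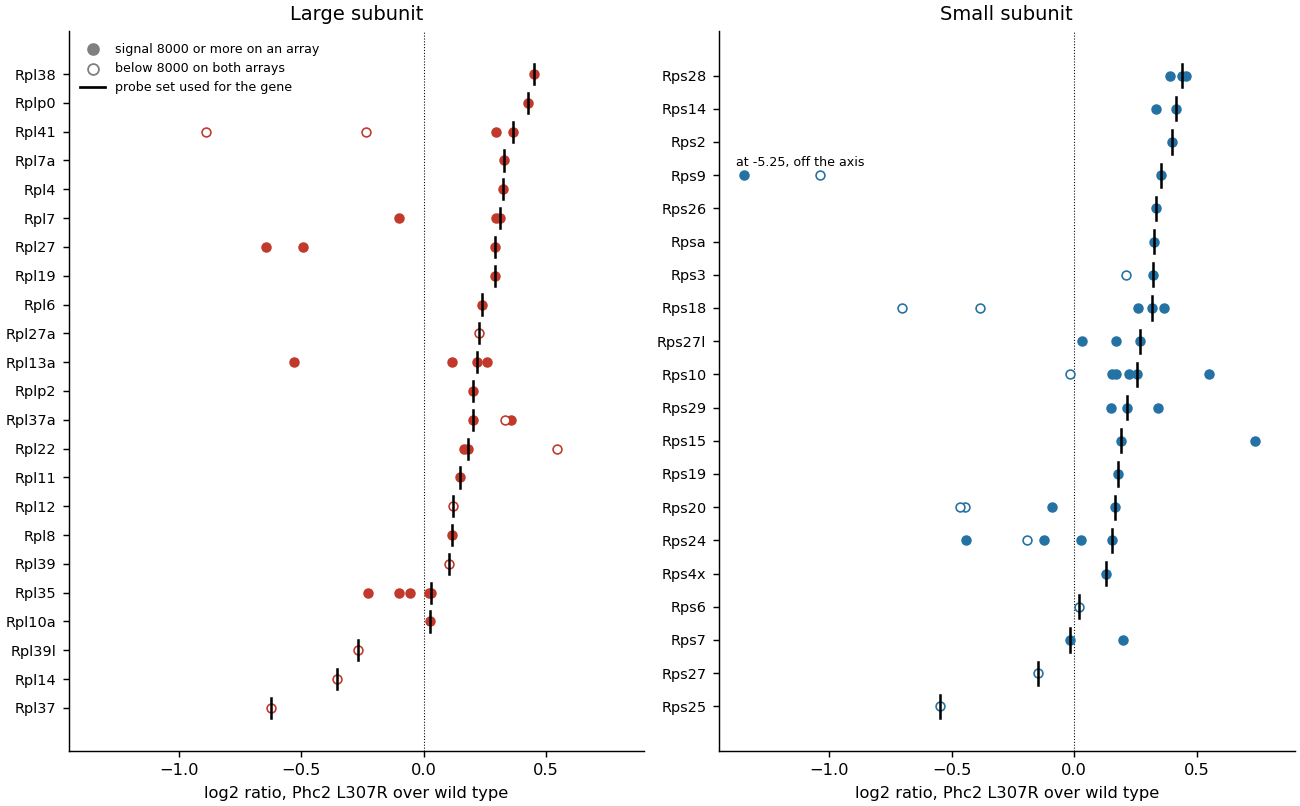
Log2 ratio (Phc2 L307R over wild type) of every measured probe set of each ribosomal protein gene, as deposited. Filled points reached a signal of 8000 on at least 1 array, open points did not, and the black bar marks the probe set used for the gene. Most filled points lie to the right of 0 and most open points to the left.

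The order of single members is limited by the disagreement between probe sets of 1 gene. Bright here means a signal of at least 8000 on an array. Over the 17 genes other than Rps9 with at least 2 bright probe sets, probe sets of the same gene scattered with an SD of 0.22 (log2), and with Rps9 included the SD was 0.71. Across the 34 genes represented by a bright probe set, the SD of the log2 ratio was 0.12. The SDs of 0.22 and 0.12 are over unlike sets: the first takes every bright probe set, the second only the one used for each gene. The second leaves out low probe sets such as those of Rpl27 and Rpl13a given below. Whether bright members differ by less than their own probe sets is therefore not settled. With a scatter of 0.22 between probe sets of a gene, the order of the bright members is not resolved. Of the 18 genes with at least 2 bright probe sets, 10 had all of them higher, none had all of them lower, and 8 had them on both sides of 0. The same share over other genes was not counted. Most other probe sets of such signal were higher too, 60 of 72 from 16384 to 23170.5 and 18 of 20 above.

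The strongest disagreement was in Rps9, a protein of the small subunit's body. Probe set 1434624_x_at read 13931 on the wild-type array but 365.3 on the Phc2 L307R array, 38.1-fold lower. That was the lowest log2 ratio, -5.25, of all 23615 measured probe sets on the arrays; the next, at -4.98, belonged to Cap1. At 1433689_s_at Rps9 read 16892 and 21608, a log2 ratio of 0.36, and at the dim 1426958_at 512.4 and 249.6, 2.05-fold lower. The 3 probe sets therefore did not give 1 direction for the gene. The suffixes _x_at and _s_at mark probes that can also bind other transcripts. What each Rps9 probe set detects was not tested. The 20 measured genes nearest to Rps9 on chromosome 7 had log2 ratios from -0.42 to 0.70.

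Other members showed smaller splits. Rpl27 read 21255 and 26019 at 1416099_at, a log2 ratio of 0.29, but 11780.4 and 7543 at 1448217_a_at, 1.56-fold lower, and 13337 and 9469 at 1453096_x_at, at -0.49. Rpl13a, released from the ribosome on interferon signalling, had 3 bright probe sets at 0.11 to 0.26 and another, with 13184 and 9132, at -0.53. In both genes the lower probe sets were the dimmer ones in wild type. Rps24 ran from -0.44 to 0.15 over 4 bright probe sets. In the opposite direction, Rps15, chosen after its values were seen, read 11851 and 19756 at 1416089_at, 1.67-fold higher, and 19767 and 22583 at 1416088_a_at, at 0.19. Of all 89 measured member probe sets, 1 was at least 1.5-fold higher and 6 at least 1.5-fold lower, where 3.87% and 4.95% of all measured probe sets were.

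**Figure D4:**
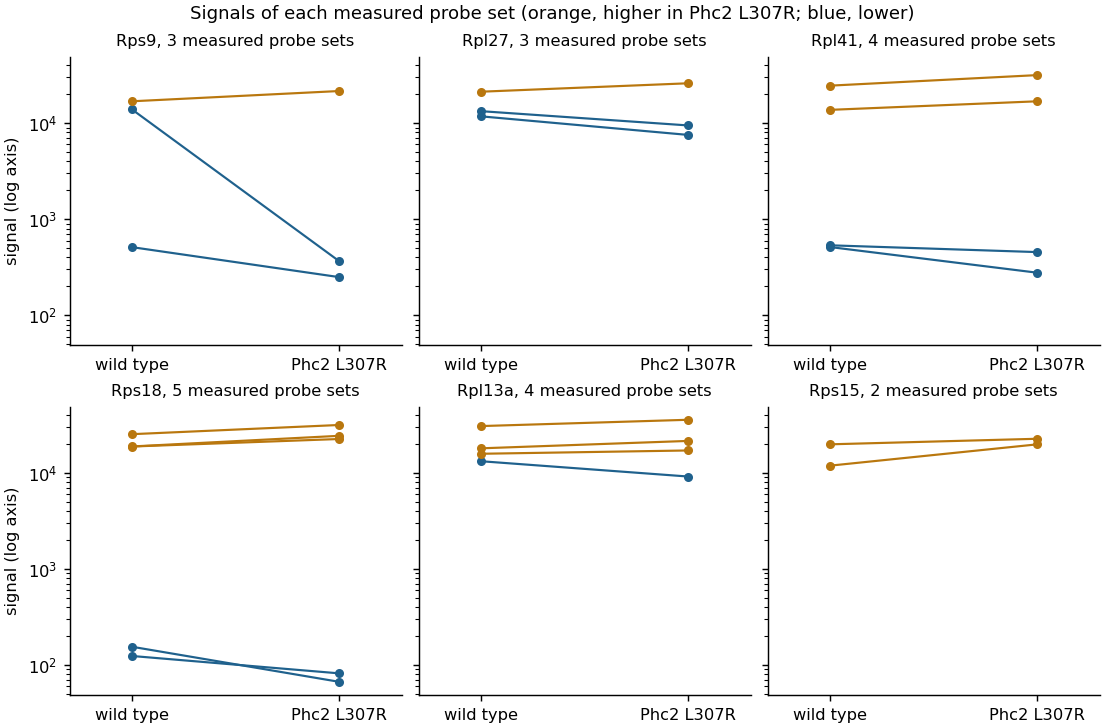
Signal on each array (log axis) for every measured probe set of Rps9, Rpl27, Rpl41, Rps18, Rpl13a and Rps15; a line joins the wild-type and the Phc2 L307R value of 1 probe set. In Rps9, 1 line falls from 13931 to 365.3 while another rises from 16892 to 21608.

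Most dim probe sets of these genes were lower and most bright ones higher. No measured member had a highest signal between 4696 and 11780.4, so a signal of 8000, chosen after the values were seen, divides them into 68 bright and 21 dim probe sets. The bright ones had a median log2 ratio of 0.21, with 56 higher and 12 lower, where 54.2% of all measured probe sets were higher. Of 586 bright probe sets of other single genes 65.9% were higher, with a median of 0.10, but most of these had lower signals than the bright members. In the band of mean signal from 16384, 21 of 25 members and 60 of 72 others were higher. In the band from 23170.5, 32 of 35 and 18 of 20 were. The shares were thus close where most bright members lie. In the band from 8192, 0 of 3 members and 143 of 230 others were higher, and in that from 11585.2, 3 of 4 and 113 of 164. The dim ones had a median of -0.24, with 14 of 21 (66.7%) lower, where 45.8% of all measured probe sets were lower and 46.1% of the 20055 dim probe sets of other single genes were. The median of those other dim probe sets was 0.03. Under the 4 scalings run for the dim members their median was -0.25 with quantile normalization, -0.26 with either loess and -0.27 centred in bands. Each time 14 were lower. In the bands that hold them, medians of other genes ran only from -0.005 to 0.05, so these scalings could change little there.

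Ribosomal protein probe sets that the rule leaves out lay mostly on the same sides, the dim ones lower more often than dim members. Of 103 measured probe sets with a ribosomal protein symbol beside others, 24 were dim. Their median was -0.32, with 22 lower and 2 higher. The 79 bright ones had a median of 0.25, with 8 lower and 71 higher, and of -0.02 centred in bands. Of probe sets of other single genes, 46.1% of dim ones were lower and 65.9% of bright ones higher. Most of those bright ones had lower signals than the bright probe sets left out, for which the share at like signal was not counted. The probe sets left out come from the same 2 arrays and are not independent of the members. Among the dim members, Rpl41 read 513.6 and 277.5 at 1433530_at, 1.85-fold lower, and 535.4 and 454.9 at a second dim probe set, while its bright ones were at 0.30 and 0.36. Rps18 was at least 1.63-fold lower at 1421837_at, with 154.5 and 66.6, and at least 1.31-fold lower at 1450390_x_at, while its 3 bright probe sets were at 0.26 to 0.37. Rps20, a gene of pigment mutants, was at -0.45 and -0.47 at its dim probe sets and at -0.09 and 0.17 at its bright ones. Not all dim probe sets were lower: Rpl22, an RNA-binding member dispensable in most tissues, read 1024 and 1495 at 1448398_s_at, a log2 ratio of 0.55, against 0.16 and 0.18 at its bright ones. Of 9 genes with both kinds, the dim median was the lower one in 6, and the same share over other genes was not counted. In 4 of the 9 (Rpl41, Rps10, Rps18 and Rps20) the dim median was below 0 and the bright one above it, in 3 (Rpl22, Rpl37a and Rps3) both were above 0, and in Rps9 and Rps24 both were below. For Rps9 the bright median, -2.45, is that of 2 probe sets at 0.36 and -5.25. Of the 21 dim probe sets 15 had the plain suffix _at, against 6 of the 68 bright ones, so that signal and probe design changed together and their parts were not tested.

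The chromosome of Phc2, number 4, carries 4 members. Rpl11 lay 98 measured genes from Phc2 on the side of higher position, at 0.15, and Rpl22 lay 210 away, at 0.18. On the other side Rps6 lay 198 measured genes away, at 0.02, and Rps20 437 away, at 0.17. All 4 were under 1.5-fold at the probe set used for the gene.

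Genes that work with the ribosome had lower medians than its proteins as deposited. Other mRNAs of the TOP class came nearest, with a median log2 ratio of 0.11 over 16 genes, 13 higher, of which several are as bright as the ribosomal proteins. Tpt1 (translationally controlled tumour protein) read 23470.3 and 34042, at 0.54, and Vim (vimentin) 30907 and 41327, at 0.42, while Hnrnpa1, an RNA-binding protein, was at -0.23 and Eif3a at -0.10. Centred in bands their median was 0.02. Tpt1 and Vim are themselves among the 20 other probe sets on which the top band was centred. A shift shared by these mRNAs and other bright genes would therefore be removed in part. Fau, which encodes a small-subunit protein fused to a ubiquitin-like domain and has no Rps name, read 16109 and 21696, at 0.43 and 0.23 centred. Initiation factors had a median of 0.03 over 29 genes (18 higher), from Eif5 at -0.30 to Eif2b5, the catalytic subunit of eIF2B, at 0.52. Eif3a, in both lists, and Eif2b2 (0.31) came next at either end.

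The machinery that makes ribosomes lay lower than the proteins themselves as deposited, but at lower signal. Ribosome assembly factors had a median of -0.05 over 42 genes, 17 higher and 25 lower, with Rrp15 at -0.70 and Gnl3l at -0.50 and with Pes1 at 0.27 and Fbl, the rRNA methyltransferase fibrillarin, at 0.38. Genes of RNA polymerase I and its factors, which transcribe rRNA, had a median of -0.13 over 14 genes, 6 higher and 8 lower, with Taf1a at -0.52, Taf1d at -0.47, Taf1c at 0.35 and Ubtf at 0.39. The median of the mean log2 signal was 10.9 for the assembly and 9.50 for the polymerase I list, below the bend. Centred in bands the median log2 ratios were -0.09 and -0.17, beside -0.05 for the cytosolic ribosomal proteins. The list of mTORC1, its regulators and Myc had a median of 0.10 over 13 genes, with Tsc2 at 0.48, Rptor at 0.43, Myc at -0.29 and Mycn at -0.91. One assembly factor and 1 gene of the mTORC1 list were 1.5-fold lower, and no gene of the initiation, polymerase I, assembly or mTORC1 lists was 1.5-fold higher, where 3.25% of all measured genes were lower and 4.19% higher by that much.

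Other large complexes of lower signal gave medians near 0. The mitochondrial ribosomal proteins had a median of 0.01 over 76 genes, 39 higher and 37 lower, with Mrpl33 at -1.55 and Mrpl1 at -0.63 and with Mrps24 at 0.39 and Mrpl34 at 0.31. The proteasome had a median of 0.04 over 31 genes, 21 higher, with Psmc4 at -0.84, Psma1 at -0.48, Psmb7 at 0.36 and Psmb2 at 0.39. Centred in bands these medians were -0.02 and 0.00, beside -0.05 for the cytosolic ribosomal proteins.

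**Figure D5:**
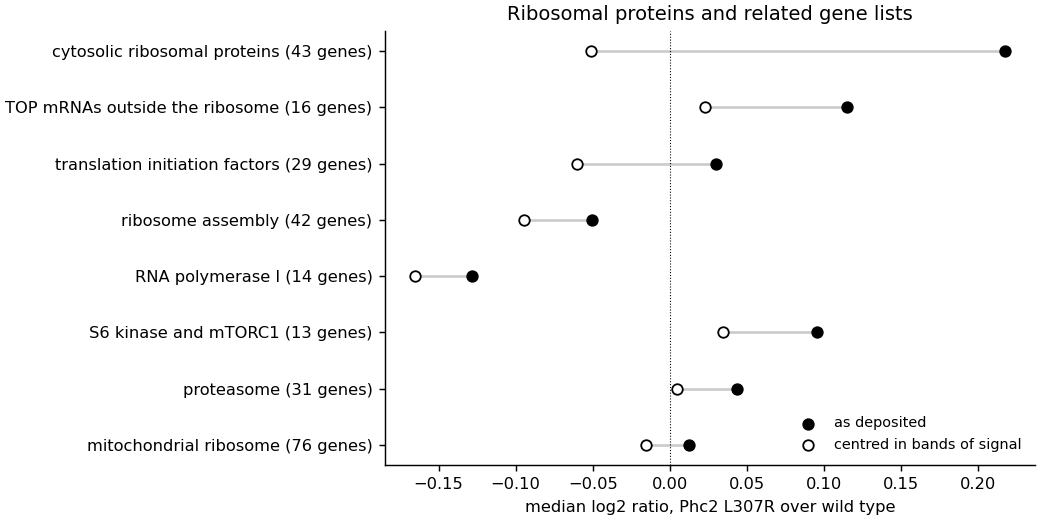
Median log2 ratio (Phc2 L307R over wild type) of the cytosolic ribosomal proteins and of 7 related gene lists, as deposited (filled) and centred in bands of signal (open), with the number of measured genes. The ribosomal proteins move farthest, from 0.22 to -0.05, and the polymerase I list is lowest under both.

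The cultures carried fibroblast markers on both arrays, all 10 measured. Their signals summed to 124894 in the wild-type culture and 161744 in the Phc2 L307R culture. Their median log2 ratio was 0.36 as deposited and 0.09 centred in bands. These markers are themselves among the other genes on which the bands were centred. As deposited 7 were higher and 3 lower: Pdgfrb at -0.34, and Pdgfra and S100a4 both at -0.12. Of the red blood cell and hepatocyte markers with a probe set none was measured, and of the 7 macrophage markers Ptprc, C1qa and C1qb were not. The other 4 were dim, with signals summing to 514.1 for wild type and 704.4 for Phc2 L307R: Csf1r was at 0.57, Lyz2 at 0.57, Adgre1 at 0.55 and Cd68 at -0.11. Chondrocyte markers, at least 1.5-fold higher on the Phc2 L307R array in 3 of 5 (4.19% of all measured genes were) and with Sox9 at -0.29, summed to 5526 for the wild-type and 8129.5 for the Phc2 L307R culture. Muscle markers, all 5 measured, summed to more, 15097 and 16777 in the same order. Neural markers (4 of 5 measured) summed to 2603 and 2810, epithelial ones (3 of 5) to 1015.1 and 803.1 and endothelial ones (3 of 5) to 587.3 and 542.4. Each of these lists held genes on both sides of 0. The part of any such cells in the ribosomal protein values was not tested, and fewer cells of a type and less RNA per cell cannot be told apart in these cultures.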

How the data were processed

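RNA of 1 wild-type and 1 Phc2 L307R fibroblast culture was measured on 1 Affymetrix array each. The deposited values are MAS5 signals, a linear intensity per probe set, made by the authors with Affymetrix Expression Console, per the submitters' processing notes. Both arrays have the same trimmed mean, leaving out 2% at each end.

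From these, log2 ratios were computed with a floor at the higher array median, 94.8. A gene took its measured probe set of highest mean log2 signal, and 1.5-fold was the threshold. Of 45037 probe sets other than controls, 34945 have 1 symbol in the platform table (34741 matched in RefSeq), 932 several and 9160 none. Quantile normalization, loess, centring, other floors and other probe set choices were alternatives. The loess with a span of 0.05, the centring in bands of 0.5 and the split at 8000 were chosen after seeing the data. Genes are named by the highest and lowest values, disagreement between probe sets and fixed role lists, with Rps15 as an exception. The members and lists were chosen with earlier results of these data known. No test was possible with 1 array per genotype, and that number limits the precision. Computations used Python 3.11.15, pandas 2.3.3, numpy 2.4.6 and statsmodels 0.14.6, and were tested on simulated data. No sequence of the proteins was used here.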

Additional observations from a re-analysis of the deposited data

How the results depend on the processing

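The median log2 ratio of the ribosomal protein genes was 0.22 as deposited. It was 0.0036 with quantile normalization (22 higher, 21 lower), 0.13 with a loess span of 0.4, 0.15 with the dimmest probe set of each gene (28 higher, 15 lower) and 0.018 with only plain _at probe sets (11 higher, 10 lower, 21 genes left). Of the alternatives chosen after seeing the data, a loess span of 0.05 gave 0.016 (22 higher, 21 lower) and centring in bands -0.051 (14 higher, 29 lower). The mean over probe sets gave 31 higher and 12 lower. Shares of all measured genes on either side of 0 were counted only as deposited, with quantile normalization and centred in bands. Shares past 1.5-fold were counted only as deposited. Member counts under the other choices, above and below, therefore have no background to be read against. The number of genes at least 1.5-fold lower was 1 as deposited, 2 with either centring on a constant, with probe sets averaged or the _x_at and _s_at ones left out, 3 with only _at and 4 with the dimmest probe set; those last 2 choices each gave 1 gene at least 1.5-fold higher. With a threshold of 25% above the other array 11 genes were higher and 3 lower, and at 2-fold 0 were higher and 0 lower. Removing the floor or using it as a pseudocount kept the median at 0.22 and 0.20. No paired analysis was possible because each genotype has 1 array, and for the same reason no array could be left out.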
